A study of Mus musculus with 6 samples.

Results

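The genes described here encode the proton pump that acidifies lysosomes and the proteins that work beside it. They are 48 genes taken by symbol from a list of proton pump subunits, lysosomal membrane proteins, lysosomal hydrolases and their helpers, with the cathepsins left out. All 48 were among the 15469 genes of the deposited table, and all 48 were among the 11424 genes with enough counts to test. By role they were 16 genes of the pump, 8 lysosomal membrane proteins, 2 transcription factors, 20 hydrolases with their cofactors, and 2 genes that sort hydrolases to the lysosome.

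Messenger RNA was sequenced from mouse macrophages that carried RELM-α on their surface, sorted from the peritoneal cavity of CAIA mice and then plated in culture. The 3 libraries labelled KO came from cells described as lacking PU.1, and the 3 labelled WT from control cells. Both groups share the CAIA model, the sort for RELM-α and the culture step. PU.1, encoded by Spi1, is the ETS-family transcription factor on which macrophages depend. The labels give no strain, age or sex of the mice, and they do not say how or in which cells PU.1 was deleted or how long the cells were cultured. Whether the replicates were separate mice or separate wells is not stated either. The p-values therefore reflect the spread among these 6 libraries alone, and that spread may be technical.

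Each library held 17280851 to 18632616 counts. Spi1 transcript was not lost: it was at 276.9, 285.5 and 319.7 CPM (counts put on one library size by TMM factors) in the libraries labelled KO, against 323.4, 340.2 and 283.7 CPM in those labelled WT. The groups overlapped, and the log2 difference was -0.10 (SE 0.106, edgeR adjusted p = 0.561). The level of this transcript does not by itself bear out the label KO, nor does it show whether PU.1 protein was lost. Whether PU.1 was absent could thus not be checked here. Every direction below is one between libraries labelled KO and libraries labelled WT. The 4 tested genes of chromosome Y summed to 0.0513 to 0.44 CPM in the libraries labelled KO, against 125 to 171.4 CPM in those labelled WT, so the label and the presence of Y-linked transcripts cannot be told apart. KO replicate 1 stood apart from its group. Across genes its log2 CPM correlated at Pearson's r of 0.902 and 0.922 with KO replicates 2 and 3, which correlated with each other at 0.99, and at 0.955 to 0.959 with the WT libraries. Counts of members are therefore given below with and without KO replicate 1. Of the 8 macrophage markers listed, none stayed under 1 TPM (a share of all transcripts that takes account of transcript length) in every library, and 1, Csf1r, was called higher. They summed to 35055 TPM in KO replicate 1, 79863 and 77817 TPM in KO replicates 2 and 3, and 63090 to 66190 TPM in the libraries labelled WT. Lyz2 made up most of each sum. It was at 28821 TPM in KO replicate 1, 73415 and 71177 TPM in KO replicates 2 and 3, and 58017 to 60980 TPM in the WT libraries. These sums therefore mainly follow Lyz2. Cd68 is on this marker list and is also one of the members described below. Markers of large peritoneal macrophages summed to 211.9 to 257.9 TPM in the libraries labelled KO and 141.6 to 200.8 TPM in those labelled WT (1 of 5 in the table, Icam2, called higher). Markers of B, mast, dendritic and mesothelial cells summed to 0 to 6.23 TPM in any library, with only 2 of 7 mast and 2 of 5 mesothelial markers in the table. For T and NK cells the sums were 2.11, 11.4 and 16.6 TPM in KO replicates 1 to 3 and 11.5 to 16.5 TPM (WT). For fibroblasts they were 0.76, 6.79 and 11.3 TPM in KO replicates 1 to 3 and 1.77 to 2.48 TPM (WT). For erythroid cells they were 6.52, 0.27 and 0 TPM in KO replicates 1 to 3 and 4.8 to 7.01 TPM (WT). For eosinophils they were 0.84, 5.13 and 4.73 TPM in KO replicates 1 to 3 and 4.13 to 5.75 TPM (WT). For endothelial cells they were 2.09 to 2.69 TPM (KO) and 2.28 to 3.33 TPM (WT). Markers of small peritoneal macrophages and monocytes summed to 135.9 TPM in KO replicate 1 and to 28.1 and 27.4 TPM in KO replicates 2 and 3. They summed to 3.3 to 8.07 TPM in the libraries labelled WT (1 of 6, Cx3cr1, called higher). Those of neutrophils summed to 59.1 TPM in KO replicate 1, 26.5 and 22.8 TPM in KO replicates 2 and 3, and 73.3 to 83.2 TPM in the WT libraries. Of these, 0 of 6 in the table were called and 3 were under 1 TPM throughout. The part of any of these lists in the values below was not tested.

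The V-ATPase is a rotary motor. Its V1 sector, on the cytoplasmic side, splits ATP, and the turning of that sector drives protons through the V0 sector in the membrane into the lumen. Lysosomal hydrolases need the acid that the pump makes. Most of them reach the lysosome by way of a mannose 6-phosphate tag, and many of their genes and those of the pump share a short E-box called the CLEAR element, which is bound by TFEB and TFE3. Macrophages carry many lysosomes to digest what they engulf, and osteoclasts, which belong to the same lineage, use a form of the pump on their surface to dissolve bone.

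The promoters are shown first because some of them hold the core of the CLEAR element. Sequences came from RefSeq promoters of GRCm38.p6, which run from 250 bases before to 50 bases after a listed start, and 42 of the 48 genes had an entry. Atp6v1b2, Atp6v1c1, Atp6v1g1, Atp6v1h, Asah1 and M6pr had none. The letters TCACGTG, the core of the CLEAR element searched on both strands, were found in the promoters of 13 of these 42 genes (31%), against 1160 of 27025 genes in the whole promoter table (4.29%). The shorter E-box CACGTG, which every TCACGTG contains, was in the same 13 genes (31%) and in 8.09% of all genes. A match is a description of these letters and does not show that a factor was bound. Of the pump genes, 4 held a match, shown here in windows of 30 bases read 5′ to 3′ in the direction of the gene, with the motif in capitals.

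Atp6v1a: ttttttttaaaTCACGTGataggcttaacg
Atp6v0b: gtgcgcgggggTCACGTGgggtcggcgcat
Atp6v0d1: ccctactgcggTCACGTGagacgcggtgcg
Atp6v0e: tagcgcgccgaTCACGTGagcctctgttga

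These windows lay at chr16:44139373-44139402 on the minus strand, chr4:117887348-117887377 on the minus strand, chr8:105566050-105566079 on the minus strand and chr17:26676387-26676416 on the plus strand of GRCm38. The motif began 132, 37 and 4 bases before the start in Atp6v1a, Atp6v0b and Atp6v0d1, and at base 3 after it in Atp6v0e. The other 9 genes with a match were Lamp1, Mcoln1, Cln3, Gaa, Gla, Glb1, Naglu, Sgsh and Arsa. They are membrane proteins and hydrolases, and 3 of them are given for comparison.

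Lamp1: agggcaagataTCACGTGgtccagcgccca
Cln3: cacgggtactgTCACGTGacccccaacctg
Sgsh: gctccccacggTCACGTGcacggcaggccc

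The Lamp1 window was at chr8:13159088-13159117 on the plus strand and the Cln3 window at chr7:126583340-126583369 on the minus strand. In Sgsh the motif was on the strand opposite to the gene, at chr11:119355522-119355551 on the plus strand. The palindrome TCACGTGA was in 6 of the 42 genes (14.3%) and in 1.12% of all genes. The median log2 difference, KO minus WT, was -0.14 over the 13 genes with TCACGTG and -0.15 over the 29 without it, and 3 of the 13 and 11 of the 29 had an unadjusted p under 0.05. For the palindrome the medians were -0.22 over the 6 genes with it, which ran from -0.39 to -0.14, and -0.07 over the 36 without it. Neither difference was tested. The ETS core GAGGAA, the letters at the centre of PU.1 sites, was in 18 of 42 genes (42.9%) and in 31.3% of all genes, and the longer GAGGAAGT in 2 of 42 (4.76%) and in 3.69% of all genes.

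Between the labels, Cd63 was lower in the libraries labelled KO, and no other member passed the main test. Over all 6 libraries edgeR's quasi-likelihood test, with Benjamini-Hochberg adjustment over all 11424 genes, called 1 of 48 genes lower and 0 higher in the libraries labelled KO at an adjusted p under 0.05, while 1.06% of all genes tested were called lower and 2.26% higher. At an unadjusted p under 0.05 the members numbered 16 lower and 3 higher, against 7.76% and 15% of all genes. In scaled CPM all 3 KO libraries lay below all 3 WT libraries for 20 members (12.6% of all genes) and above them for 4 (18.4% of all genes). The log2 difference was below zero for 35 of 48 members, with a median of -0.15, against 5787 of 11424 genes (50.7%) and a median of -0.01 over all genes tested. The 6 members on chromosome X (Atp6ap1, Atp6ap2, Lamp2, Tfe3, Gla and Ids) had a median of -0.20 and the other 42 of -0.15, against -0.12 over all 366 tested genes of chromosome X and -0.0038 over those of other chromosomes. In bulk RNA, fewer cells of a type and less RNA per cell cannot be told apart.

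**Figure D1:**
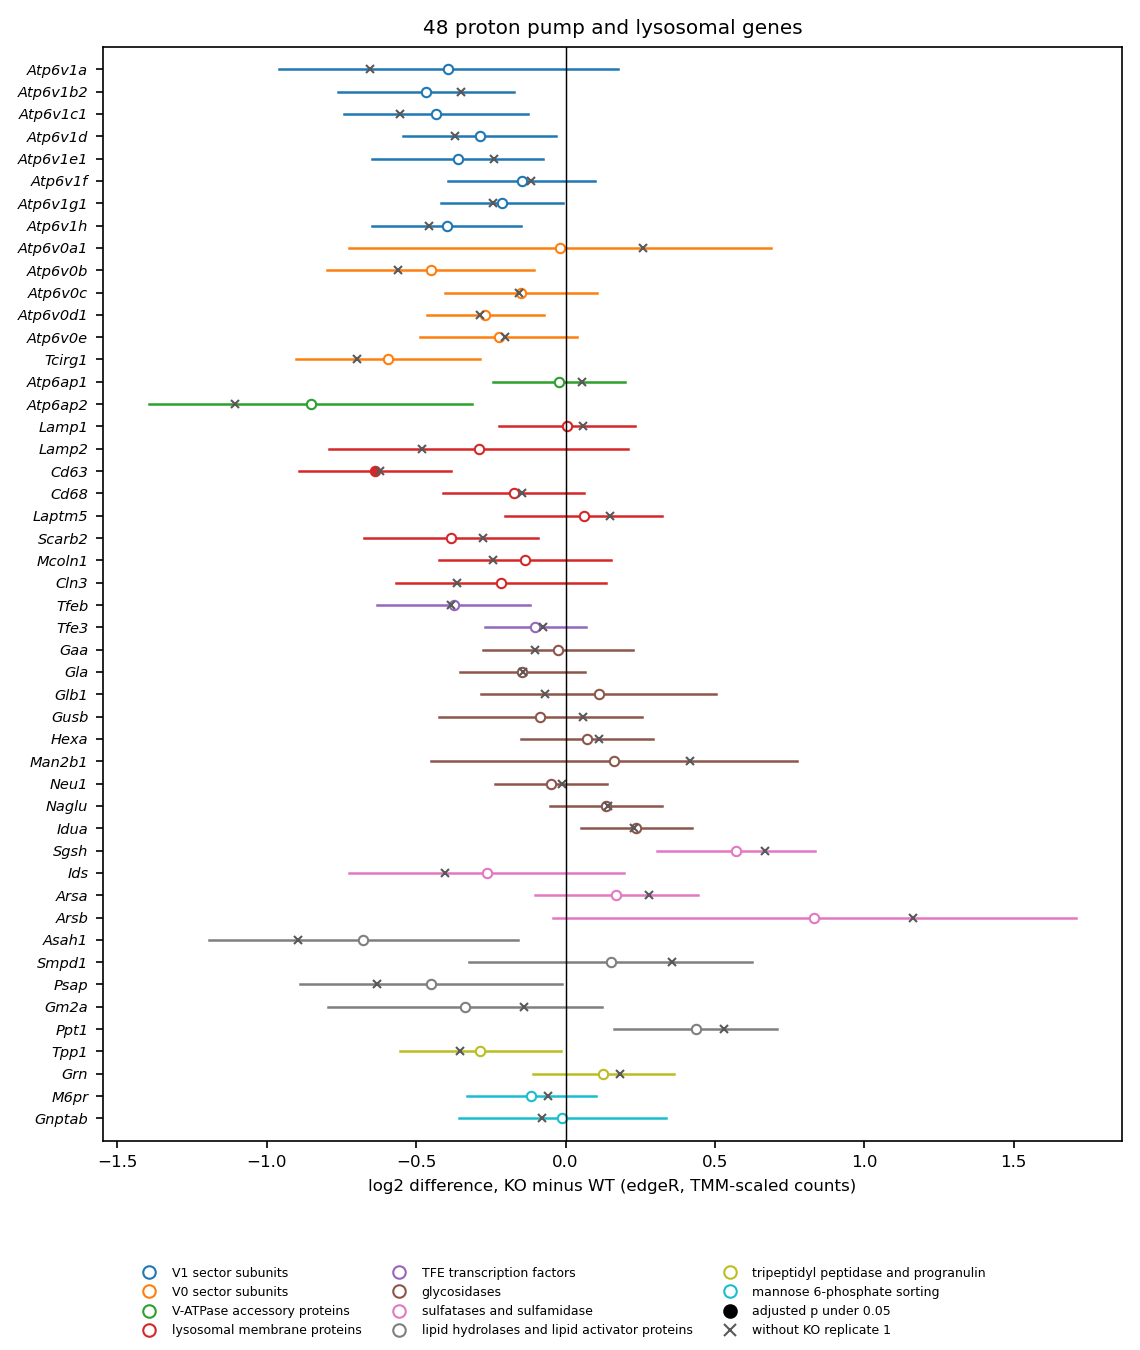
Log2 difference between libraries labelled KO and WT (x axis, KO minus WT, fitted by edgeR) for each of the 48 genes (y axis, grouped and coloured by role), with bars for the 95% interval. The filled point is the 1 gene with an adjusted p under 0.05, Cd63, and the crosses, the fit without KO replicate 1, lie left of zero for 14 of the 16 pump genes.

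The scale of comparison matters for levels this close together. On the scaled counts used for every difference here, the median log2 ratio of all genes was -0.01, but on the deposited TPM, which are not scaled between libraries, it was 0.14, and the median of the 48 genes was 0.01 on that scale. Relative to all genes the members therefore sat lower by a like amount on either scale. Summed, the 48 genes took 49388 ± 4354 CPM in the libraries labelled KO and 60781 ± 2209 CPM in those labelled WT (SD, n = 3 each), a ratio of 0.813. In TPM the sums were 42885 ± 5398 and 47517 ± 1125, a ratio of 0.903. Without Psap, the most abundant member, the ratio was 0.904 in CPM and 0.965 in TPM.

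All 16 pump genes had a log2 difference below zero over the 6 libraries, with a median of -0.32, and edgeR called none. DESeq2 called 5 lower (Atp6v1b2, Atp6v1c1, Atp6v1h, Tcirg1 and Atp6ap2) against 2.97% of all genes. That share is over 15450 genes, including those with too few counts for the edgeR test. The GC and length correction called 3 lower against 2.98% of all genes. Of these 16, 10 had an unadjusted p under 0.05, all on the lower side (7.76% of all genes). In scaled CPM 10 had every KO library below every WT library (12.6% of all genes). The number below zero was 14 with upper-quartile factors, 14 when the filter was a mean CPM of 10 or more, and 14 without KO replicate 1. On the deposited TPM the KO mean was above the WT mean for Atp6v1f, Atp6v0a1, Atp6v0c and Atp6ap1. On that scale every KO library lay below every WT library only for Atp6v1b2, Atp6v1e1, Tcirg1 and Atp6ap2. The lack of overlap for the other pump genes thus holds in scaled CPM alone. Summed, the pump took 6839 ± 181 CPM in the libraries labelled KO and 8588 ± 108 CPM in those labelled WT (SD, n = 3 each), a ratio of 0.796, and 8132 ± 639 and 8920.4 ± 120.3 TPM, a ratio of 0.912.

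The V1 sector was represented by 8 genes, and the log2 difference was below zero for all 8 of them, between -0.47 and -0.15, with a median of -0.38. None was called by edgeR over all 6 libraries, and 6 had an unadjusted p under 0.05 (7.76% of all genes on the lower side). For 6 the KO libraries lay below the WT libraries without overlap in scaled CPM (12.6% of all genes). Atp6v1h (chromosome 1, 5082978 to 5163213, plus strand), the regulatory H subunit that joins ATP splitting to rotation, had the smallest p of the sector. It was at 125.4, 114.3 and 102.7 CPM in the libraries labelled KO, against 147.9, 144.3 and 159.2 CPM in those labelled WT. Every KO library was below every WT library, with a log2 difference of -0.40 (SE 0.102, edgeR adjusted p = 0.0931). Corrected for the GC content and length of transcripts, that difference was -0.03 (adjusted p = 0.869).

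Atp6v1b2 (chromosome 8, 69088736 to 69113718), the B subunit found in most tissues and part of the ATP-splitting ring, had the highest level of the sector, 619.3 TPM over the 6 libraries. It was at 704.9, 902.4 and 869.8 CPM in the libraries labelled KO, against 1082, 1159 and 1183 CPM in those labelled WT. KO replicate 1 was the lowest library here, so the gap to WT was not confined to KO replicates 2 and 3. The log2 difference was -0.47 (SE 0.121, edgeR adjusted p = 0.0959) and with the GC and length correction -0.65 (adjusted p = 0.012). Atp6v1a, the catalytic A subunit, was at 1018, 625.9 and 617.7 CPM in the libraries labelled KO, against 879.4, 952 and 1138 CPM in those labelled WT. KO replicate 1 was thus within the WT range and the other KO libraries under it, and the adjusted p was 0.347. The remaining V1 genes were Atp6v1c1 and Atp6v1e1, of the stator stalks, with log2 differences of -0.43 and -0.36, Atp6v1d, of the central rotor, with -0.29, Atp6v1g1, another stalk subunit, with -0.21, and Atp6v1f, of the rotor, with -0.15.

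The V0 sector held 6 genes, whose log2 differences lay between -0.59 and -0.02, with a median of -0.25. None was called, and 3 had an unadjusted p under 0.05 (7.76% of all genes on the lower side). For 3 every KO library was below every WT library in scaled CPM (12.6% of all genes). Tcirg1 (chromosome 19, 3896050 to 3907133, minus strand), the a3 form of the membrane subunit that the osteoclast pump uses and that is also found in lysosomes of macrophages, had the smallest p. Its level was 968.6, 726.9 and 810.3 CPM in the libraries labelled KO, against 1257, 1302 and 1223 CPM in those labelled WT. All KO libraries were below all WT libraries, and KO replicate 1 was the nearest of them to WT. The log2 difference was -0.59 (SE 0.126, edgeR adjusted p = 0.0637), and it was past the threshold with the GC and length correction (-0.67, adjusted p = 0.0477), by DESeq2 (adjusted p = 0.00136) and without KO replicate 1 (-0.70, adjusted p = 4.33e-04).

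Atp6v0c (chromosome 17, 24163865 to 24169678), the proteolipid that forms most of the rotor ring in the membrane, had the highest level of any pump gene, 2644 TPM. It was at 1506, 1444 and 1435 CPM in the libraries labelled KO, against 1718, 1705 and 1439 CPM in those labelled WT. The groups overlapped because WT replicate 3 was within the KO range, and the log2 difference was -0.15 (SE 0.104, adjusted p = 0.411). Atp6v0b, the other ring proteolipid, and Atp6v0d1, the subunit that joins the ring to V1, had log2 differences of -0.45 and -0.27 with no overlap between the groups. Atp6v0e, a small membrane subunit, had a log2 difference of -0.22 with overlap. Atp6v0a1, the a1 form of the membrane subunit, was at 358.3 CPM in KO replicate 1 and at 706.9 and 739 CPM in KO replicates 2 and 3, against 539.7, 637.1 and 652.4 CPM in the WT libraries. KO replicate 1 was thus below all WT libraries and the other KO libraries above them, and the log2 difference of -0.02 averages over both.

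The pump has alternative genes for some subunits, and the share of each was read within a library, where the scale between libraries does not enter. In percentage points the d subunit differed most of the 4 subunits compared. Atp6v0d2, the d2 form known from osteoclasts and also made by macrophages, took 28.6%, 28.3% and 36.2% of the summed TPM of Atp6v0d1 and Atp6v0d2 in the libraries labelled KO, against 61.3%, 66.2% and 72.4% in those labelled WT. The groups did not overlap, with means of 31% ± 4.47 and 66.6% ± 5.56 (SD, n = 3 each; exact two-sided permutation test, p = 0.1, the smallest that the 20 assignments of these libraries allow). The a3 form Tcirg1 took 78.3%, 59.2% and 61% of the summed TPM of Atp6v0a1, Atp6v0a2 and Tcirg1 in the libraries labelled KO, against 76.6%, 74.3% and 72.3% in those labelled WT, and KO replicate 1 lay above the WT range while replicates 2 and 3 lay below it (exact permutation p = 0.4). The e2 form Atp6v0e2, chosen after its values were seen, took 0.0213%, 4.17% and 3.96% of the summed TPM of Atp6v0e and Atp6v0e2 in the KO libraries, against 0.0348%, 0.106% and 0.0234% in the WT libraries, so that only KO replicates 2 and 3 carried more than a trace (exact permutation p = 0.4).

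**Figure D2:**
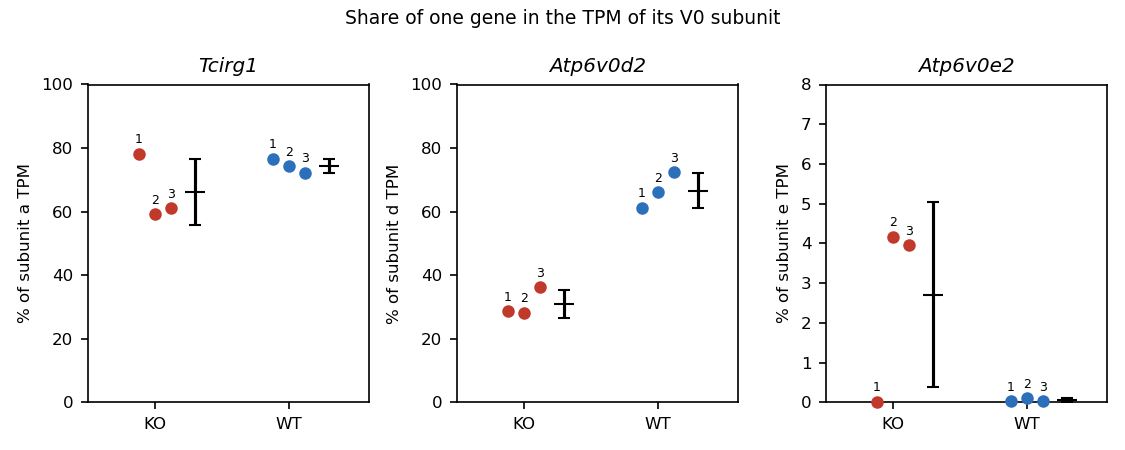
Share of Tcirg1, Atp6v0d2 and Atp6v0e2 in the summed TPM of the genes for subunits a, d and e (y axes, percent; the e panel runs to 8%), with 1 numbered point per library and the mean with its SD beside each group (KO left, WT right). The KO libraries lie at 28.3% to 36.2% for Atp6v0d2 and the WT libraries at 61.3% to 72.4%, while for the other pair of genes KO replicate 1 lies apart from KO replicates 2 and 3.

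In scaled counts Atp6v0d2 fell to 139.2, 128 and 182.5 CPM in the libraries labelled KO, against 656.1, 794.8 and 983.9 CPM in those labelled WT. The log2 difference was -2.44 (SE 0.211, edgeR adjusted p = 0.0126), while that of Atp6v0d1 was -0.27 (SE 0.0804, adjusted p = 0.125). Corrected for GC and length, these differences were -1.76 for Atp6v0d2 (adjusted p = 0.0374) and -0.37 for Atp6v0d1, and -1.47 and -0.51 when KO replicate 1 was also left out. The transcripts hold 41.6% GC in Atp6v0d2 and 53.4% in Atp6v0d1. Without KO replicate 2, WT replicate 2 or WT replicate 3 the adjusted p of Atp6v0d2 was 0.0574, 0.0918 and 0.0702. Of the 10 listed osteoclast markers, 9 were in the table and 6 were tested, 1 was called lower (Ctsk, cathepsin K) and 3 stayed under 1 TPM in every library. Their summed level was 127.5 to 142.1 TPM in the libraries labelled KO and 200.9 to 270.5 TPM in those labelled WT. Ctsk was at 8.77 to 16.8 TPM in the libraries labelled KO and 62.9 to 78.7 TPM in those labelled WT. Acp5, a phosphatase, was at 4.3 to 26.3 and 42.3 to 83.5 TPM. Without Ctsk and Acp5 the sums of the groups overlapped because KO replicate 1 then lay above every WT library. KO replicates 2 and 3 still lay below the WT libraries. The gap without those genes thus did not hold in every KO library. The part of the osteoclast markers in the values of Tcirg1 and Atp6v0d2 was not tested.

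The accessory proteins of the pump differed from each other. Atp6ap2 (chromosome X, 12587759 to 12617051), the prorenin receptor, which helps to assemble the pump, had the lowest log2 difference of the 48 genes. Its level was 251.6, 148.5 and 163.2 CPM in the libraries labelled KO, against 312, 329.1 and 376.7 CPM in those labelled WT. No KO library reached the WT range, and KO replicate 1 was again the nearest, with a log2 difference of -0.85 (SE 0.22, edgeR adjusted p = 0.0973). The GC and length correction brought that difference to -0.16 (adjusted p = 0.513), and to -0.00094 when KO replicate 1 was also left out. Atp6ap1 (chromosome X, 74297097 to 74304721), another assembly factor, was at 450.8, 523.4 and 512 CPM in the libraries labelled KO, against 515.2, 494.7 and 499 CPM in those labelled WT, with full overlap and a log2 difference of -0.02 (SE 0.0901, adjusted p = 0.891).

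Of the 8 lysosomal membrane proteins, 1 was called, and it was the only member that edgeR called over all 6 libraries. Cd63 (chromosome 10, 128896231 to 128912822, plus strand), a tetraspanin of late endosomes, lysosomes and secretory granules, fell to 1212, 1220.3 and 1218 CPM in the libraries labelled KO, against 1942, 2058 and 1684 CPM in those labelled WT. The 3 KO libraries were almost level with each other and all below the WT libraries. The fold was 0.642 and the log2 difference -0.64 (SE 0.104, 95% interval -0.89 to -0.38, edgeR adjusted p = 0.0396). Cd63 stayed past the threshold without KO replicate 1 (-0.62, adjusted p = 0.0017), with the GC and length correction (-0.67, 0.0238) and by DESeq2 (adjusted p = 2.26e-05), but not with upper-quartile factors (adjusted p = 0.0833) or without a filter on low counts (0.0511). With any of the other 5 libraries left out its adjusted p was 0.0992 to 0.239. Platelets also carry Cd63 in their granules, and 3 of the 7 platelet and megakaryocyte markers (Itga2b, Gp1ba and Gp9) were called lower (1.06% of all genes). The 7 markers summed to 260.4 TPM in KO replicate 1, above every WT library. They summed to 83.5 and 75.3 TPM in KO replicates 2 and 3, below the WT libraries at 132.6 to 206 TPM. Their part in the value of Cd63 was not tested.

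The promoter listed for Cd63 is shown because it belongs to the called gene. It is the stretch from 150 bases before to 30 bases after the start in the promoter table, at chr10:128909195-128909374 on the plus strand of GRCm38, and that start lies inside the gene's full range. It holds no TCACGTG, and the capitals mark the ETS core GAGGAA, read on the opposite strand as TTCCTC.

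Cd63: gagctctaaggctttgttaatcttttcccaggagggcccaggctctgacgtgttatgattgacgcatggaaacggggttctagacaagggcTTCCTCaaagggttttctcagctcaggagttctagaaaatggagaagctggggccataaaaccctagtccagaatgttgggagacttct

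The other membrane proteins were not called by edgeR. Cd68, macrosialin, the heavily glycosylated lysosomal protein used as a macrophage marker, was nearly as abundant as Cd63, at 3638 TPM against 3733 TPM over the 6 libraries. It was at 2114, 2125 and 2235 CPM in the libraries labelled KO, against 2642, 2363 and 2300.2 CPM in those labelled WT. There was no overlap in CPM but a log2 difference of only -0.17 (SE 0.0963, adjusted p = 0.325), and in TPM the groups overlapped. Scarb2 (LIMP-2), which carries glucocerebrosidase to the lysosome, had a log2 difference of -0.38 (adjusted p = 0.134), also without overlap. Lamp1 and Lamp2, the main glycoproteins of the lysosomal membrane, were both uncalled. The log2 difference of Lamp1 was 0.01 (SE 0.0931). Lamp2 was at 751.7 CPM in KO replicate 1 and 454 and 576 CPM in KO replicates 2 and 3, against 656.8, 691.8 and 830.7 CPM in the WT libraries. Cln3, the membrane protein mutated in juvenile Batten disease, Mcoln1, the calcium channel TRPML1, and Laptm5, a transmembrane protein of blood cells, had log2 differences of -0.22, -0.14 and 0.06, all with overlap.

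For Tfeb and Tfe3, the transcription factors that drive lysosomal genes, every KO library lay below every WT library in scaled CPM, and edgeR called neither. Tfeb (chromosome 17, 47737037 to 47792416) was at 48.4, 43.6 and 48.6 CPM in the libraries labelled KO, against 59.5, 67 and 55.9 CPM in those labelled WT. Its log2 difference was -0.38 (SE 0.105, edgeR adjusted p = 0.111; adjusted p = 0.0458 with the GC and length correction). Tfe3 (chromosome X, 7762530 to 7775202) was at 160.3, 162 and 166.4 CPM in the libraries labelled KO, against 175.7, 177.5 and 171.1 CPM in those labelled WT, a log2 difference of -0.10 (SE 0.0696, adjusted p = 0.406). In TPM the groups overlapped for Tfe3, with means of 95.8 ± 4.21 in the libraries labelled KO and 93.4 ± 2.82 in those labelled WT (SD, n = 3 each). The activity of both factors is set largely by where in the cell they are held, which RNA does not show.

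The 20 hydrolases and cofactors lay on both sides of zero. For 11 the log2 difference was above zero and for 9 below it, with a median of 0.09, against -0.32 over the 16 pump genes. None was called by edgeR over all 6 libraries. At an unadjusted p under 0.05 there were 3 higher and 3 lower, against 15% and 7.76% of all genes. In scaled CPM the KO libraries lay above all WT libraries for 4 (18.4% of all genes) and below for 5 (12.6% of all genes).

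The 9 glycosidases, which trim sugars from glycoproteins, glycolipids and glycosaminoglycans, had log2 differences between -0.14 and 0.24, with a median of 0.07, and edgeR called none. With the GC and length correction the median turned to -0.057 with none called, and without KO replicate 1 as well it was -0.19 with 5 called lower and 0 higher. In that last setting 30.8% of all genes were called lower and 23% higher. Their summed level was 4552 ± 576 CPM in the libraries labelled KO and 4382 ± 118 CPM in those labelled WT (SD, n = 3 each). Idua (chromosome 5, 108660331 to 108685446), the iduronidase missing in Hurler syndrome, had the smallest p of the class. It was at 88.5, 82.1 and 86.3 CPM in the libraries labelled KO, against 71.8, 71.9 and 74.3 CPM in those labelled WT, all KO libraries above all WT libraries, with a log2 difference of 0.24 (SE 0.0764, adjusted p = 0.143). Idua overlaps Slc26a1 and Dgkq, and the strand setting of the counting is not given, so reads may be shared. Hexa (chromosome 9, 59539540 to 59565109), the alpha chain of hexosaminidase, was the most abundant at 1049 TPM, with 1139, 1225 and 1187 CPM in the libraries labelled KO, against 1124, 1201 and 1055 CPM in those labelled WT (log2 0.07, SE 0.0905, adjusted p = 0.635). In TPM its KO libraries, at 1106.8 to 1151.5, lay above its WT libraries, at 929.28 to 1022.1. Gusb, beta-glucuronidase, and Glb1, beta-galactosidase, had log2 differences of -0.09 and 0.11, and Naglu, which acts on heparan sulfate, had one of 0.13 with no overlap. Gaa, the acid glucosidase that breaks down glycogen, Gla, alpha-galactosidase, and Neu1, the sialidase, had log2 differences of -0.03, -0.14 and -0.05.

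Sulfatases and the sulfamidase, 4 genes in all, had the highest median log2 difference of any role, 0.37, and their summed level was 330.7 ± 32.7 CPM in the libraries labelled KO and 272.1 ± 16.1 CPM in those labelled WT (SD, n = 3 each). Sgsh (chromosome 11, 119343489 to 119355510, minus strand), the sulfamidase of heparan sulfate breakdown whose promoter window is printed above, had the smallest p and the highest level of the class. It was at 109.8, 130.9 and 134.4 CPM in the libraries labelled KO, against 89.7, 82.8 and 80.4 CPM in those labelled WT. All KO libraries were above all WT libraries, and KO replicate 1 was the nearest to WT, with a log2 difference of 0.57 (SE 0.108, edgeR adjusted p = 0.0518). Sgsh was past the threshold with the GC and length correction (0.41, adjusted p = 0.0492), by DESeq2 (adjusted p = 0.00337) and without KO replicate 1 (0.67, adjusted p = 4.83e-04). It overlaps Card14 by 1891 bases, so its count may hold reads of that gene. Arsb, which removes sulfate from dermatan sulfate, was at 28, 74.4 and 61.8 CPM in the libraries labelled KO, against 30.2, 29.3 and 32.7 CPM in those labelled WT, with KO replicate 1 under the WT range and the other KO libraries over it. Arsa, arylsulfatase A, had a log2 difference of 0.17 and Ids, the iduronate sulfatase, of -0.26, both with overlap.

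Genes for lipid breakdown pointed both ways, and edgeR called none. DESeq2 called Asah1 lower (adjusted p = 0.0412) and Ppt1 higher (adjusted p = 0.0416), and the GC and length correction called Asah1 lower (adjusted p = 0.049). Psap (chromosome 10, 60277628 to 60302600), the precursor of the saposins that present glycolipids to hydrolases, was by far the most abundant of the 48 genes, at 18267 TPM over the 6 libraries. It was at 29424, 19883 and 21225 CPM in the libraries labelled KO, against 32492, 33851 and 30096 CPM in those labelled WT. In CPM KO replicate 1 lay just under the WT range and KO replicates 2 and 3 well under it, with a log2 difference of -0.45 (SE 0.18, adjusted p = 0.209) over all 6 libraries and -0.63 (adjusted p = 8.73e-04) without KO replicate 1. In TPM KO replicate 1 was at 21619, above the WT libraries at 19533 to 20955, and KO replicates 2 and 3 were at 13294 and 14378. Ppt1 (chromosome 4, 122836077 to 122859175), the thioesterase that takes fatty acids off proteins, had the smallest p of the class and the other sign. It was at 184.4, 238.1 and 203.8 CPM in the libraries labelled KO, against 152.7, 151.5 and 159.2 CPM in those labelled WT, with no overlap and a log2 difference of 0.43 (SE 0.112, adjusted p = 0.0954). Asah1, acid ceramidase, had a log2 difference of -0.68 (SE 0.211, adjusted p = 0.136) and Gm2a, the GM2 activator, of -0.34. Both were below WT in every KO library in scaled CPM, but in TPM the groups overlapped for both. The log2 difference of Smpd1, acid sphingomyelinase, was 0.15, with KO replicate 1 on the other side of WT from KO replicates 2 and 3. The listed range of Asah1 overlaps Frg1 by 8464 bases.

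Tpp1, the tripeptidyl peptidase of late infantile Batten disease, and Grn, progranulin, a secreted and lysosomal glycoprotein, completed the hydrolase side. Tpp1 (chromosome 7, 105744811 to 105752282) was at 411.6, 341.8 and 354.7 CPM in the libraries labelled KO, against 432.7, 426.1 and 491.4 CPM in those labelled WT. In CPM all KO libraries were below all WT libraries, with a log2 difference of -0.29 (SE 0.111, adjusted p = 0.2). In TPM the groups overlapped, with means of 231.2 in the libraries labelled KO and 224.3 in those labelled WT. Grn (chromosome 11, 102430507 to 102436809), at 1897 TPM one of the more abundant members, was at 2239.7, 2439 and 2463 CPM in the libraries labelled KO, against 2293, 2219 and 2032 CPM in those labelled WT. The groups overlapped in CPM, with a log2 difference of 0.13 (SE 0.0967, adjusted p = 0.447). In TPM every KO library, at 2055.6 to 2102.3, lay above every WT library, at 1685.2 to 1737.1.

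The 2 sorting genes were not called by edgeR. M6pr (chromosome 6, 122308720 to 122317680), the small mannose 6-phosphate receptor, was at 416.6, 479.8 and 431.8 CPM in the libraries labelled KO, against 488.1, 464.4 and 485.9 CPM in those labelled WT, a log2 difference of -0.11 (SE 0.088, adjusted p = 0.447). Gnptab, the enzyme that starts the mannose 6-phosphate tag, had a log2 difference of -0.01 (SE 0.141). For both genes the groups overlapped.

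**Figure D3:**
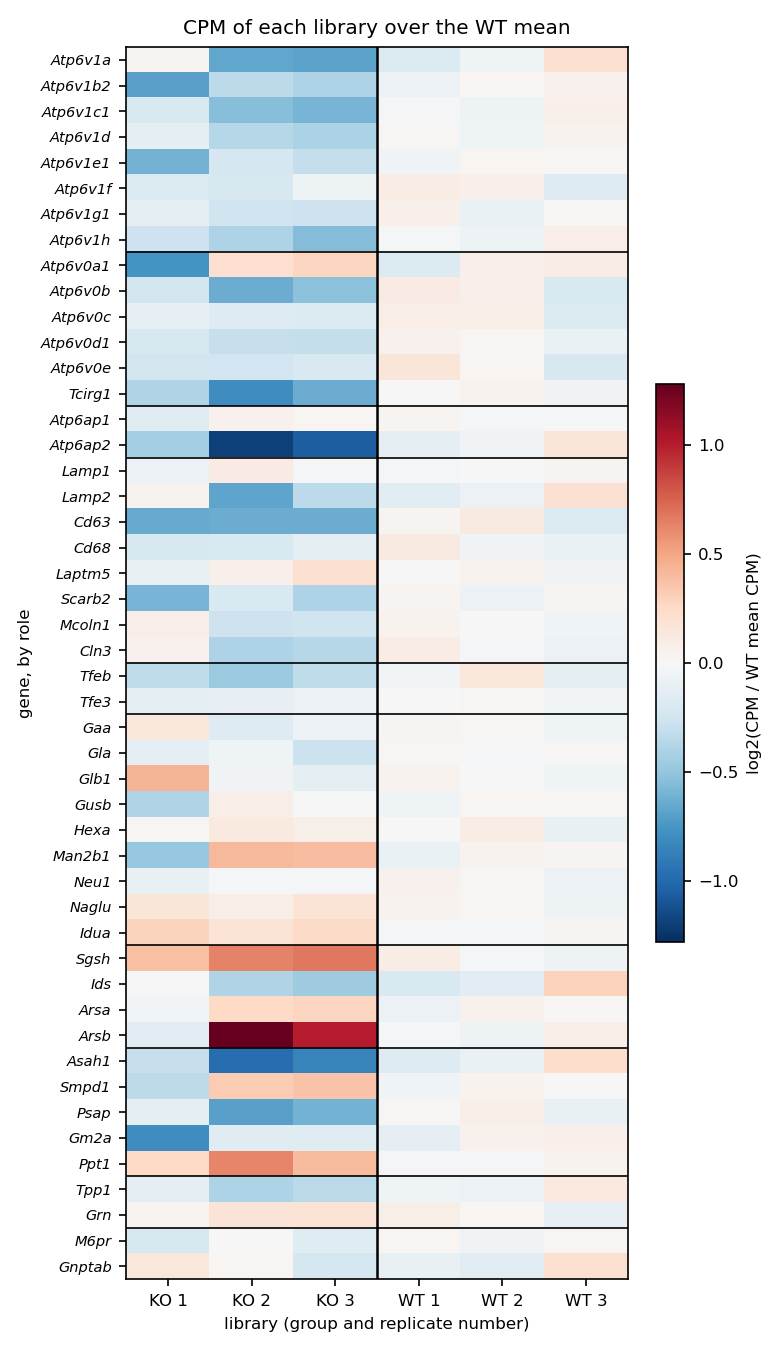
Level of the 48 genes (rows, in blocks by role) in each library (columns, KO left and WT right), coloured by log2 of the CPM over the WT mean. Cd63 is at the same level in all 3 KO libraries, while Arsb, Man2b1 and Atp6v0a1 are above the WT mean in KO replicates 2 and 3 and below it in KO replicate 1.

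How much the genes differed between the labels depended on KO replicate 1. For 31 of 48 members KO replicate 1 lay outside the range of KO replicates 2 and 3 on the side of WT, as it did for 67.3% of all genes. It lay within the WT range for 9 members (33.6% of all genes) and beyond WT, on the other side from KO replicates 2 and 3, for 7 (16.6% of all genes): Atp6v0a1, Laptm5, Mcoln1, Gaa, Man2b1, Arsb and Smpd1. The members with the widest gaps between KO replicate 1 and the mean of KO replicates 2 and 3, in log2, were Arsb (-1.28), Atp6v0a1 (-1.01), Man2b1 (-0.89), Atp6v1a (0.71) and Atp6ap2 (0.69). Man2b1, the lysosomal alpha-mannosidase, was at 931.6 CPM in KO replicate 1 and at 1737 and 1712 CPM in KO replicates 2 and 3, against 1233, 1346 and 1337 CPM in the WT libraries, with a log2 difference of 0.16 over all 6 (adjusted p = 0.696).

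**Figure D4:**
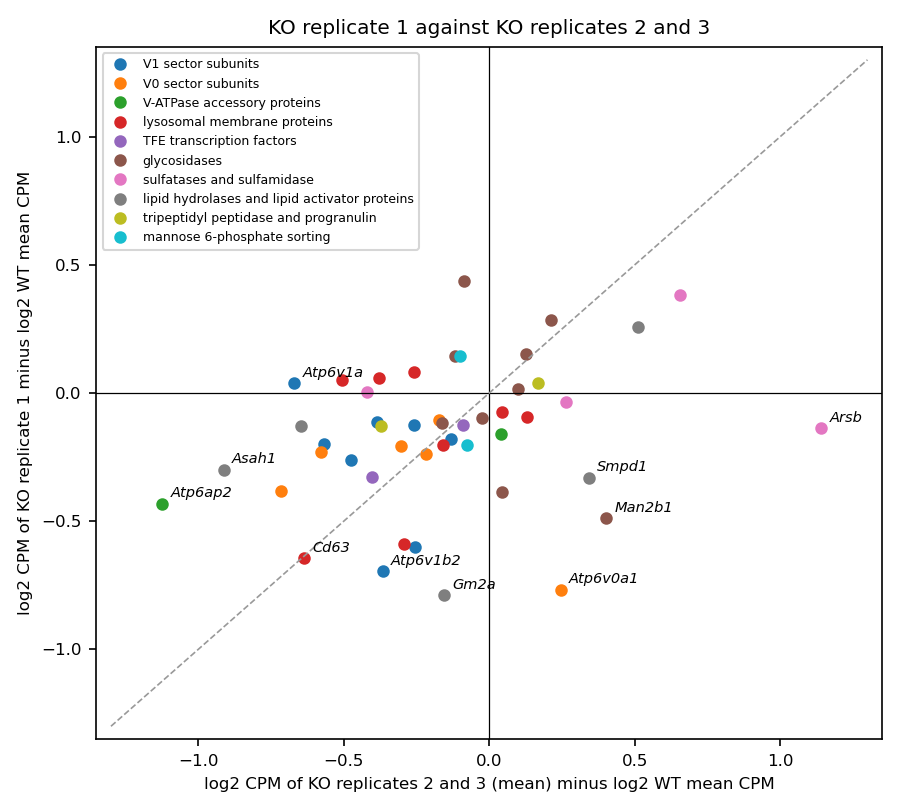
Log2 CPM relative to the WT mean in KO replicates 2 and 3 together (x axis) and in KO replicate 1 (y axis), 1 point per gene and coloured by role, with the dashed line where both are equal. Arsb, Man2b1, Smpd1 and Atp6v0a1 lie at the lower right, above WT in KO replicates 2 and 3 and below it in KO replicate 1, and Cd63 lies on the line.

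Without KO replicate 1, edgeR called 20 members lower and 7 higher, where 26% and 23.6% of all genes were called in those directions. Of the 16 pump genes 11 were lower and 0 higher, and of the 20 hydrolases and cofactors 3 were lower (Asah1, Psap and Tpp1) and 7 higher (Man2b1, Idua, Sgsh, Arsa, Arsb, Smpd1 and Ppt1). With so many genes called across the genome, the 27 members of 48 stand beside 49.6% of all genes.

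GC content moved with the differences. Over the 48 members the fitted log2 difference had a Spearman correlation of 0.42 with the GC content of the transcript, and over all genes tested of 0.35, values that describe genes measured in the same 6 libraries. With a correction for GC content and length over all 6 libraries, edgeR called 6 members lower (Atp6v1b2, Atp6v1e1, Tcirg1, Cd63, Tfeb and Asah1) and 1 higher (Sgsh), against 2.98% and 3.4% of all genes. Of the pump genes 15 were below zero after it, the exception being Atp6v1d with a log2 difference of 0.18, and the median of the hydrolases and cofactors was -0.04 in place of 0.09. With the correction and without KO replicate 1, 30 members were lower and 6 higher, against 30.8% and 23% of all genes, and the hydrolases and cofactors then numbered 9 lower and 4 higher.

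In the authors' deposited table, made with DESeq2, 7 of the 48 genes had a q-value under 0.05, 6 lower and 1 higher in KO, where 1238 of all genes (8.02%) passed. The 6 lower were Atp6v1b2, Atp6v1c1, Atp6v1h, Tcirg1, Atp6ap2 and Cd63, and the higher one Sgsh. DESeq2 run here on the rounded counts called the same 7 with Asah1 lower and Ppt1 higher in addition. That makes 7 lower and 2 higher, against 2.97% and 5.73% of all genes (8.7% in either direction). These shares are over 15450 genes, including those with too few counts for the edgeR test.

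The remaining genes of the pathway, from lists of other pump subunits, assembly factors, hydrolases, membrane proteins, sorting genes and TFE and mTORC1 partners, were read from the same fit. Of 108 listed, 101 were in the table and 98 tested, with a median log2 difference of -0.06. Of these 1 was called higher and 2 lower, against 2.26% and 1.06% of all genes. Besides Atp6v0d2, Tpcn2, a calcium and sodium channel of the endolysosome, fell to 44.5, 55.9 and 59.7 CPM in the libraries labelled KO, against 87.8, 103.6 and 111.9 CPM in those labelled WT (log2 -0.92, SE 0.151, edgeR adjusted p = 0.0403). Smpdl3b, a membrane-bound relative of acid sphingomyelinase, rose to 7.38, 12.8 and 12.9 CPM in the libraries labelled KO, against 0.698, 1.5 and 0.721 CPM in those labelled WT (log2 3.49, SE 0.412, adjusted p = 0.021). Without each of the libraries other than KO replicate 1 in turn, neither passed (adjusted p = 0.0998 to 0.225 for Tpcn2 and 0.0822 to 0.114 for Smpdl3b). The 9 assembly and regulation genes of the pump had a median of -0.56, and of -0.15 with the GC and length correction. Of these 9, 0 were called by edgeR and 1 had an unadjusted p under 0.05 (7.76% of all genes on that lower side). For 6 of them KO replicate 1 was within the WT range (33.6% of all genes).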

How the data were processed

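The authors deposited a table of genes holding, per the file headers, an estimated count for each gene in each library, with no normalization. Of the values of a library, 4.82% to 5.49% were not whole, and all were rounded before testing. TPM values are deposited beside them, per the file headers, and served here for levels between genes and for shares. The table also holds the authors' own log2 fold changes and q-values, which the file headers ascribe to DESeq2, and these were used only to count genes at a q-value under 0.05. Its header names WT before KO, but the log2 column has the sign of KO over WT for all 2167 genes that differ over 2-fold by counts. The submitters' processing notes name fastp 0.18.0 and GRCm39. No aligner, counter, strand setting or annotation is named in these sources. Reads of paralogs, pseudogenes and overlapping genes may therefore be shared, and besides the overlaps given with the values Glb1 overlaps Tmppe, Cln3 Apobr, Ppt1 Cap1, Atp6v1b2 Slc18a1, Hexa Tmem202 and Tpcn2 Smim38. Coordinates printed are those of RefSeq GRCm38.p6, matched by gene ID, since 13131 of 15426 matched genes have the same start there, and 38 of the 48 members the same start and end.

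After filterByExpr (minimum count of 10), 11424 genes were tested and 4045 were not. TMM factors and the robust quasi-likelihood F test of edgeR 4.0.16 in R 4.3.3 were used, the model holding the group alone, with Benjamini-Hochberg adjustment across every gene tested. "Called" means an adjusted p under 0.05, and intervals are at 95%. The code was tested on simulated data. The settings varied were the scaling (RLE, upper-quartile), the tool (DESeq2 1.42.0, limma-voom of limma 3.58.1), the filter (none, or a mean CPM of 10 or more), the threshold (0.01), the replicate number as a block, and the libraries (each omitted once). A further setting corrected each library for GC content and length with smooth terms fitted by mgcv 1.9.3. Both properties were known for 98.5% of genes tested and for all 48 members. Applying it without KO replicate 1 was decided after seeing the data. Shares were tested by exact permutation of the 20 possible groupings. Library correlations used log2 CPM with a prior count of 2.

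The members and every gene list were chosen with earlier results of these data known, and their counts are descriptions. Values in every library are printed for called members, for the smallest p in each role where none was called, for the highest mean TPM in each role, for Tfeb and Tfe3, and for the 5 widest gaps between KO replicate 1 and the mean of the other KO libraries. Called genes of the other lists are named too. Atp6v0e2, and the per-library values of Lamp2 and Cd68, were chosen after their values were seen. Retnla, Gata6 and Calcr were not analysed here.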

Additional observations from a re-analysis of the deposited data

How the results depend on the processing

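Among all genes 379 were called by edgeR, among the 48 members 1 and among the other pathway genes 3. DESeq2 called 1344, 9 and 14. The correction for GC and length called 718, 7 and 9, and the same correction without KO replicate 1 called 6190, 36 and 56. A mean CPM of 10 or more gave 229 over all genes, and the threshold of 0.01 gave 15, 0 and 0. Upper-quartile factors called 0 members, with 3 higher and 10 lower at an unadjusted p under 0.05, and no filter 0, with 3 and 15. With single libraries left out, all genes called ran from 5 (without WT replicate 2) to 5793 (without KO replicate 1), members from 0 to 27 and other pathway genes from 0 to 42. Without KO replicate 2, KO replicate 3 or any WT library in turn edgeR called 0 members, with 2 or 3 higher and 10 to 12 lower at an unadjusted p under 0.05. With the replicate number as a block (replicate block), edgeR called 0 of all genes, 0 members and 0 other pathway genes, with 2 members higher and 11 lower at an unadjusted p under 0.05. No pairing by number was seen: same-numbered deviations from the group means correlated at -0.16, 0.25 and -0.27, and 2 of 6 libraries correlated best with their own number. With 3 libraries per group and KO replicate 1 apart from its group, this check cannot exclude a pairing.

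Some members changed sign with the setting. Corrected for GC and length, the log2 difference was 0.18 for Atp6v1d, -0.15 for Lamp1, 0.56 for Lamp2, -0.088 for Laptm5, -0.031 for Glb1, -0.057 for Hexa, -0.0455 for Man2b1, 0.37 for Ids, -0.0086 for Smpd1 and -0.0058 for Grn. With that correction and without KO replicate 1 it was 0.33 for Atp6v1d, 0.057 for Atp6v1h, -0.22 for Lamp1, 0.80 for Lamp2, -0.086 for Laptm5, -0.35 for Glb1, -0.11 for Hexa, -0.054 for Idua, 0.57 for Ids and -0.038 for Grn. With upper-quartile factors it was 0.061 for Atp6v0a1, 0.039 for Atp6ap1, 0.024 for Gaa, 0.0076 for Neu1 and 0.045 for Gnptab, and with a mean CPM of 10 or more 0.0034 for Atp6v0a1, 0.00041 for Atp6ap1 and 0.011 for Gnptab. With single libraries left out the ranges that crossed zero were -0.23 to 0.26 for Atp6v0a1, -0.085 to 0.056 for Atp6ap1, -0.068 to 0.0597 for Lamp1, -0.0503 to 0.15 for Laptm5, -0.10 to 0.014 for Gaa, -0.0703 to 0.18 for Glb1, -0.20 to 0.059 for Gusb, -0.0034 to 0.42 for Man2b1, -0.0025 to 0.36 for Smpd1 and -0.10 to 0.10 for Gnptab. The cause of these turns was not tested. The median log2 difference of the members was between -0.25 and -0.10 in all settings fitted on counts, and 0.01 on the deposited TPM.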

Other observations

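Some other lysosomal genes, chosen after their values were seen, also set KO replicate 1 apart. Mitf, another TFE-family factor of these lists, was at 90.4, 23.6 and 34.4 CPM in the libraries labelled KO, against 80.9, 87.2 and 105.8 CPM in those labelled WT (log2 -0.89, SE 0.507, edgeR adjusted p = 0.339). Tfec, also of that family, was at 20.8, 12.6 and 15.1 CPM against 21, 16.9 and 18.7 CPM (log2 -0.22, SE 0.208, edgeR adjusted p = 0.522). For both genes KO replicate 1 was within the WT range and the other KO libraries under it. Lyz2, the lysozyme of macrophages, had the opposite pattern, with 13171 CPM in KO replicate 1 and 36709 and 35108 CPM in KO replicates 2 and 3, against 34035, 31525 and 29743 CPM in the libraries labelled WT. Lgmn, the asparaginyl endopeptidase legumain, was likewise at 669 CPM in KO replicate 1 and at 1684 and 1744 CPM in KO replicates 2 and 3, against 1718, 1802 and 1686 CPM in the libraries labelled WT.

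Acp5, the tartrate-resistant phosphatase of osteoclasts and lysosomes, was at 2.81, 15.5 and 19.1 CPM in the libraries labelled KO, against 34.9, 66.7 and 58.7 CPM in those labelled WT. The groups did not overlap, and KO replicate 1 was here the farthest from WT, with a log2 difference of -2.10 (SE 0.688, adjusted p = 0.152).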
